A study of Mus musculus with 7 samples.

Results

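The report covers 10 genes of the neuronal cytoskeleton in mouse motor cortex: the neurofilament subunits Nefl, Nefm, Nefh and Ina, the related filament gene Prph, the tubulin Tubb3, the microtubule-associated proteins Mapt and Map1b, and the growth-associated genes Stmn2 and Gap43. They were chosen by name from the 54532 genes of the count table, and each name matched 1 row. Counts were high enough for a test in 9 of them, which were fitted with all 16308 genes that met the same minimum; Prph did not reach it. RNA was sequenced from 7 motor cortex samples, 3 labelled wild type (WT) and 4 labelled conditional knockout (cKO). Every mouse, WT and cKO alike, had received the GA100 virus in the left and right lateral ventricles on postnatal day 0, and tissue was taken 3 months later. The series title names TIA1 stress granules and C9orf72 poly-GA, a dipeptide repeat protein made in an inherited form of amyotrophic lateral sclerosis. The labels give neither the deleted gene, the deleted exons nor the Cre driver, and uninjected mice were not analysed here.

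Neurofilaments are the intermediate filaments of neurons. The light, medium and heavy chains and alpha-internexin assemble into polymers that fill the axon and set its calibre, and they are most abundant in neurons with long, thick axons such as the output neurons of layer 5. Microtubules, built from tubulins and bound by tau and the MAP1 proteins, carry transport along the same axons, while GAP-43 and stathmin-2 belong to the machinery of growth cones. Neurofilament light chain released into body fluids is used as a marker of axon damage in motor neuron disease, and loss of full-length stathmin-2 is a known effect of TDP-43 loss in human neurons.

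The neurofilament genes could not be read fully apart in these data. Nefl (ENSMUSG00000022055) lies on the forward strand of mm10 at chr14:68083863-68089095, and Nefm (ENSMUSG00000022054) lies on the reverse strand at chr14:68082590-68124846, across it. The end exon of the transcript Nefm-202 covers 1108 of the 1147 bases of the first exon of Nefl, on the opposite strand. These bases make up 32.8% of the exonic length of Nefl (3380 bases) and 19.2% of that of Nefm (5782 bases), and 1008 of them are coding in Nefl. The other transcript, Nefm-201, has 3334 exonic bases and does not reach Nefl. The library protocol describes no strand marking and the counting of overlaps is not given in the sources used here, so reads from the shared bases cannot be told apart between the 2 genes. Ina shares 456 exonic bases with Nt5c2, a nucleotidase gene on the opposite strand with 958 to 1146 counts per library. The other members overlapped no gene above 4 counts in any library.

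**Figure D1:**
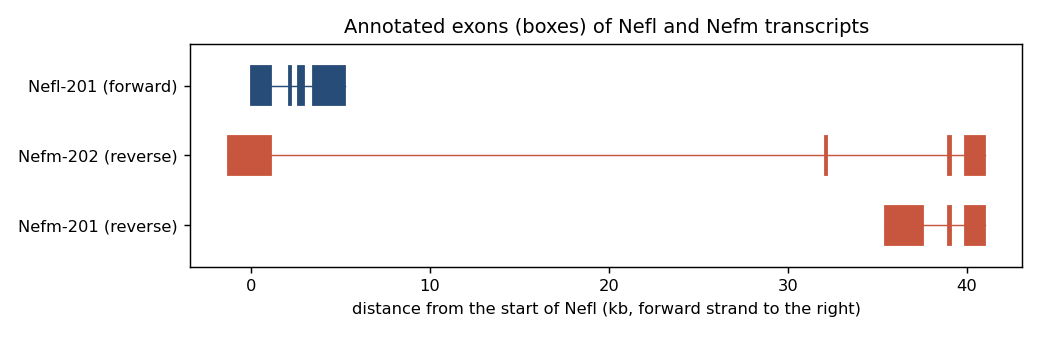
Annotated exons (boxes) of the Nefl and Nefm transcripts against distance from the start of Nefl in kb, with the forward strand to the right. The first exon of Nefl and the end exon of Nefm-202 share 1108 bases.

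RefSeq promoter windows (GRCm38.p6) were at hand for 4 of the 10 genes: Ina, Prph, Tubb3 and Map1b. The 250 bases before the start of Ina and of Prph are shown because these are the intermediate filament members with a window, and Ina was well expressed while Prph was near the limit of detection. Capitals mark matches, on either strand, to the GC box GGGCGG, the TATA box TATAAA and the CCAAT box CCAAT, which occur in 32.7%, 12.4% and 33.8% of the 32851 windows of this length; none of the 3 motifs contains another.
Ina, chr19:47014431-47014680, forward strand: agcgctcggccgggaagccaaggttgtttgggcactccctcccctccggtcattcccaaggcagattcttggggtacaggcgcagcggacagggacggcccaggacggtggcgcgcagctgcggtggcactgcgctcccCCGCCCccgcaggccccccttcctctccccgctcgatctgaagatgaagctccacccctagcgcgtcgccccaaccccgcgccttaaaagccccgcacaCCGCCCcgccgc
Prph, chr15:99054924-99055173, forward strand: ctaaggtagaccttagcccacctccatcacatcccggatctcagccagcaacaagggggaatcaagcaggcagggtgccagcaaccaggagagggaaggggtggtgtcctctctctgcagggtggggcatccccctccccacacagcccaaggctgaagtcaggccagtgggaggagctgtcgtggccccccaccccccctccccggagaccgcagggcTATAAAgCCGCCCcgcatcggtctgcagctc
The Ina window was 70.8% G or C with 25 CpG dinucleotides and 2 GC boxes, against a median of 52.4% and 6 over all windows. In the Prph window, at 65.2% G or C and 7 CpG, the TATA box began 31 bases before the start and 1 GC box began 24 bases before it. Both windows held 0 CCAAT boxes, and the Ina window held 0 TATAAA matches. The Tubb3 window held 21 CpG, 2 GC boxes and 1 CCAAT box, and the Map1b window held 19 CpG, 1 GC box and 1 TATAAA match that began 99 bases before the start.

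Library totals lay between 15181390 and 16463721 counts. The libraries WT replicate 1 and cKO replicate 1 had Xist and at most 1 count of Y-linked genes, and the other 5 the reverse, so each group held 1 female. Tia1, the gene in the title, was at 60.7, 95.8 and 69.0 CPM (counts scaled to a common library size, with TMM factors) in WT and at 81.4, 80.4, 72.7 and 81.9 CPM in the libraries labelled cKO. It was not lower in those libraries (log2 fold change 0.07 ± 0.13 SE), and a count over the whole gene does not show whether an exon was lost or a minority of cells recombined. In cKO replicate 3, all 8 tested markers of the olfactory bulb and new-born neurons had their highest value, and their summed level was 380 CPM against 94.1 to 110 in the other 6 libraries. Cdhr1, a cadherin of mitral and tufted cells of the bulb, was at 103 CPM there and at 1.06 to 2.53 elsewhere. The fold changes of members that moved without cKO replicate 3 are therefore also given without it, as are those of some other genes. Other genes with a single fold change given may also have moved. In whole tissue, fewer cells of a type and less RNA per cell cannot be told apart.

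Levels between genes were compared per length, in the FPKM that the authors deposited, which divide each gene's fragments by its length and a library size. The library sizes implied by these FPKM were 0.968 (cKO replicate 3) to 1.023 (cKO replicate 1) times the count totals, so they were not the plain totals. Tubb3, the neuron-specific beta-tubulin, had the highest mean over the 7 libraries at 142 ± 15.7 FPKM (SD, n = 7). Nefl followed at 101 ± 3.86, Map1b at 97.5 ± 14.6 and Gap43 at 89.2 ± 14.8 FPKM. Ina (66.2 ± 3.72), Mapt (65.8 ± 5.83), Stmn2 (48.6 ± 7.04) and Nefm (42.0 ± 4.83) came next, then Nefh at 22.2 ± 3.00 FPKM. Prph was lowest at 0.154 ± 0.103 FPKM. Among neighbours in this order only Tubb3 and Nefl, Nefm and Nefh, and Nefh and Prph had ranges over libraries that did not overlap. Nefl exceeded Map1b in 4 of 7 libraries and Ina exceeded Mapt in 3 of 7, so the order of those pairs was not settled. The places of Nefl and Nefm also rested on the length used, for Nefm 5782 bases with both transcripts. With the 2272 unshared bases of Nefl and the 3334 bases of Nefm-201, both would stand higher. Nefm would then be above Ina. Nefl ranked 253rd, Tubb3 165th and Prph 19500th by mean FPKM among all genes.

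None of the 9 tested members differed between the libraries labelled cKO and WT at an adjusted p under 0.05. The 3 neurofilament chains were slightly higher in cKO, by 1.04-fold for Nefl, 1.10-fold for Nefm and 1.17-fold for Nefh, while Ina, Tubb3, Mapt, Stmn2 and Gap43 were slightly lower and Map1b slightly higher. In all, 4 of the 9 were higher and 5 lower, with a median log2 fold change of -0.07, against a median of 0.01 and 51.8% higher over all tested genes. For every one of the 9 the WT and cKO values overlapped, whereas 7.38% of all tested genes had groups that did not overlap. The test, edgeR's quasi-likelihood F test with Benjamini-Hochberg adjustment over the 16308 genes, called 0% of them, so the members' count of 0 was that of the background; at an unadjusted p under 0.05 stood 1 of 9 members, Nefh, against 7.14% of all genes. The unadjusted p of Nefh moved across 0.05 with the settings. It lay above with the other 3 scalings (0.0531 to 0.0705, edgeR), DESeq2 (0.055) and limma-voom (0.0589), and below with no filter on low counts (0.0216, edgeR), with a replicate block (0.0192, edgeR) and without cKO replicate 3 (0.0141, edgeR) or 4 (0.0209, edgeR). With 3 against 4 libraries, exact permutation of the labels cannot give a two-sided p below 0.0571. Whether each library is from its own mouse is not in the labels, and the p-values then cover only the spread seen here.

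**Figure D2:**
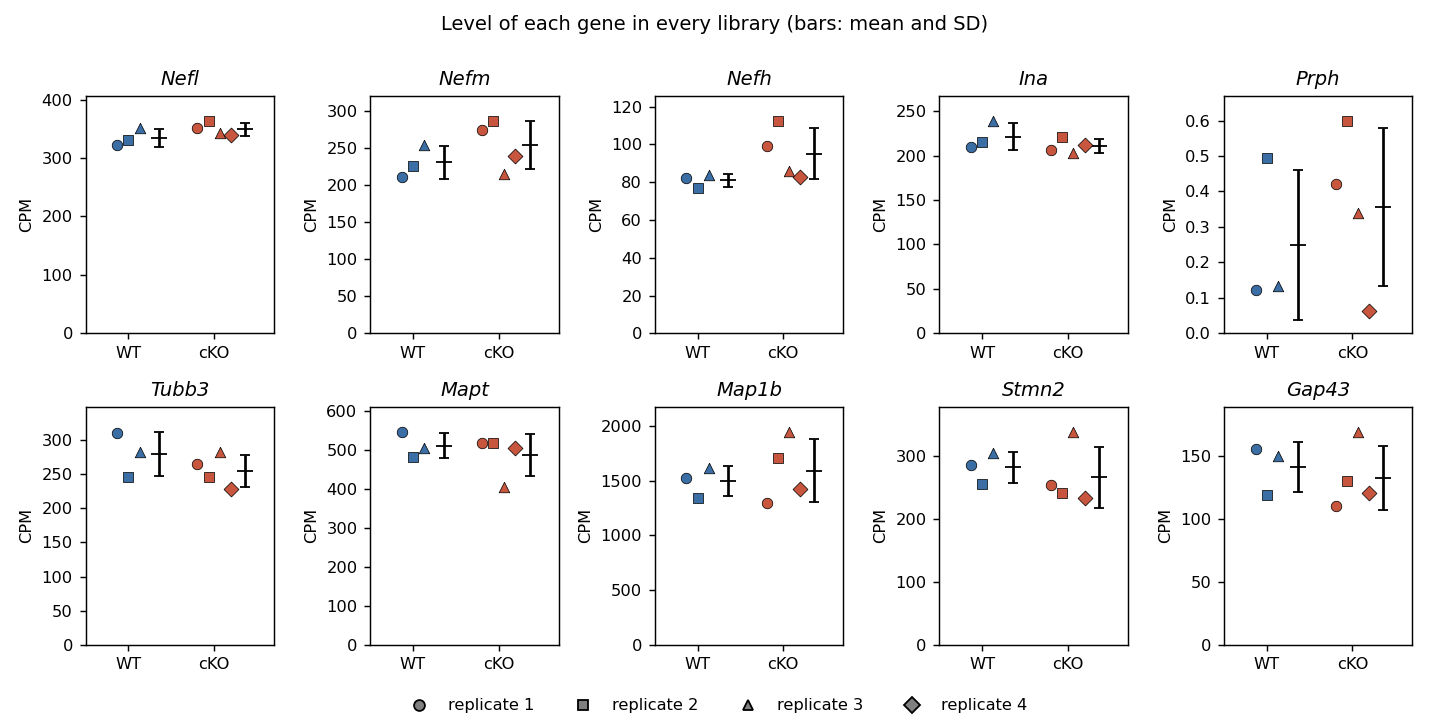
CPM of each of the 10 genes in every library, with WT in blue, cKO in red, the marker shape giving the replicate number, and the black bar the group mean with its SD. The groups overlap in every panel, and cKO replicate 3 (red triangle) is highest for Map1b, Stmn2 and Gap43 and lowest for Mapt and Ina.

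Among the neurofilament chains, Nefl encodes the light chain, the core subunit of the filament. It was at 322, 330 and 351 CPM in WT replicates 1 to 3 and at 351, 363, 343 and 339 CPM in cKO replicates 1 to 4. Its libraries lay close together in both groups, and cKO replicate 2 was the highest and WT replicate 1 the lowest. The WT mean was 334 ± 14.8 CPM (SD, n = 3) and the cKO mean 349 ± 10.7 CPM (SD, n = 4), and the same n hold for the genes that follow. The log2 fold change was 0.06 ± 0.07 (SE; 95% interval -0.09 to 0.22; edgeR adjusted p = 0.868), and the highest library exceeded the lowest by 1.13-fold, the least of all members.

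Nefm encodes the medium chain, whose tail domain carries phosphorylation sites that space neighbouring filaments. Its level was 211, 226 and 255 CPM in WT and 275, 286, 215 and 240 CPM in cKO. The first 2 cKO libraries were above all WT libraries, while cKO replicate 3 was near the lowest WT library. The means were 231 ± 22.0 and 254 ± 32.5 CPM, with a log2 fold change of 0.14 ± 0.11 (95% interval -0.09 to 0.37; edgeR adjusted p = 0.786). Without cKO replicate 3 it was 0.20 ± 0.09 (unadjusted p = 0.0326, edgeR adjusted p = 0.485).

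Nefh (ENSMUSG00000020396, chr11:4938754-4948064, reverse strand) encodes the heavy chain, which joins the filament late in development and is heavily phosphorylated in mature axons. It was at 82.2, 77.1 and 83.8 CPM in WT and at 99.3, 112, 86.0 and 82.6 CPM in cKO. The WT libraries lay within a narrow band, 3 of the 4 cKO libraries were above all of them, and cKO replicate 4 fell inside the band. The means were 81.1 ± 3.49 and 95.1 ± 13.6 CPM. With a log2 fold change of 0.23 ± 0.10 (95% interval 0.002 to 0.46), Nefh had the largest difference of the 9 members and the smallest p (unadjusted p = 0.0485, edgeR adjusted p = 0.696; exact two-sided permutation p = 0.114). The difference was 0.27 ± 0.10 without cKO replicate 3 (edgeR adjusted p = 0.39) and lay between 0.13 and 0.29 with any 1 library left out.

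Ina (ENSMUSG00000034336, chr19:47014698-47025327, forward strand) encodes alpha-internexin, the subunit that appears early in neurons and joins the triplet in central axons. Its values were 210, 216 and 239 CPM in WT and 207, 221, 203 and 212 CPM in cKO. WT replicate 3 stood above the rest, and the other 6 libraries were close together with the groups mixed. The means were 222 ± 15.4 and 211 ± 7.62 CPM, with a log2 fold change of -0.07 ± 0.08 (95% interval -0.23 to 0.09; edgeR adjusted p = 0.851).

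Prph (ENSMUSG00000023484, chr15:99055174-99058978, forward strand) encodes peripherin, the intermediate filament of spinal and brainstem motor neurons and of peripheral neurons. It had 2, 8 and 2 counts in WT and 7, 9, 5 and 1 counts in cKO. Every library was near the limit of detection, the groups overlapped, and no fold change is given. In a list of 9 markers of those neurons, only Mnx1, a transcription factor of spinal motor neurons, had 0 counts in all libraries. A count of 0 allows up to 3 counts per library. The summed level of the list of motor and peripheral neuron markers ran from 16.4 to 18.0 CPM in WT and from 18.1 to 47.6 CPM in cKO. The highest sum of the list, in cKO replicate 3, held 19.8 CPM of Th, the dopamine synthesis enzyme that the olfactory bulb list also holds, against 1.19 to 2.84 CPM elsewhere. Slc5a7, the choline transporter that forebrain interneurons also use, was at 6.92, 7.04 and 6.60 CPM in WT and 7.66, 20.2, 16.6 and 9.65 CPM in cKO, with no overlap (log2 fold change 0.98 ± 0.28; unadjusted p = 0.00508, edgeR adjusted p = 0.679).

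Of the microtubule genes, Tubb3 (ENSMUSG00000062380, chr8:123411424-123422015, forward strand) encodes the beta-tubulin of neurons. It was at 310, 246 and 283 CPM in WT and at 265, 246, 283 and 229 CPM in cKO. WT replicate 1 was the highest and cKO replicate 4 the lowest, with the other libraries interleaved. The means were 280 ± 32.5 and 256 ± 23.6 CPM, with a log2 fold change of -0.13 ± 0.10 (95% interval -0.34 to 0.09; edgeR adjusted p = 0.786). Without cKO replicate 3 it was -0.19 ± 0.09 (unadjusted p = 0.0513, edgeR adjusted p = 0.524).

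Mapt (ENSMUSG00000018411, chr11:104231390-104332090, forward strand) encodes tau, which binds axonal microtubules and forms aggregates in several dementias. Its level was 546, 483 and 506 CPM in WT and 518, 520, 406 and 507 CPM in cKO. All libraries but cKO replicate 3 lay in a common range, and that library was far below them. The means were 512 ± 31.9 and 488 ± 54.5 CPM and the log2 fold change was -0.07 ± 0.10 (95% interval -0.28 to 0.14; edgeR adjusted p = 0.898). Without cKO replicate 3 the log2 fold change was 0.001 ± 0.07, with the sign turned.

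Map1b (ENSMUSG00000052727, chr13:99421446-99516540, reverse strand) encodes a microtubule-associated protein of growing axons, made as a precursor that is cut into a heavy and a light chain. Its exonic length was 15846 bases, the longest of the members, and CPM does not correct for length. It was at 1524, 1345 and 1615 CPM in WT and 1296, 1704, 1943 and 1421 CPM in cKO. The cKO group spanned the WT group on both sides, from replicate 1 below it to replicate 3 above it. The means were 1495 ± 137 and 1591 ± 290 CPM, with a log2 fold change of 0.09 ± 0.13 (95% interval -0.20 to 0.38; edgeR adjusted p = 0.903). Without cKO replicate 3 it was -0.03 ± 0.10, again with the sign turned.

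Of the growth-associated genes, Stmn2 (ENSMUSG00000027500, chr3:8509360-8561606, forward strand) encodes stathmin-2, a tubulin-binding protein of growth cones. It was at 286, 255 and 305 CPM in WT and at 254, 241, 338 and 233 CPM in cKO. In cKO the replicates 1, 2 and 4 were below every WT library and replicate 3 was above every one. The means were 282 ± 25.1 and 267 ± 48.4 CPM, with a log2 fold change of -0.08 ± 0.12 (95% interval -0.35 to 0.18; edgeR adjusted p = 0.904). Without cKO replicate 3 it was -0.22 ± 0.08 (unadjusted p = 0.0116, edgeR adjusted p = 0.367).

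Gap43 (ENSMUSG00000047261, chr16:42248442-42340651, reverse strand) encodes a membrane protein of growth cones and presynaptic terminals. Its values were 156, 119 and 150 CPM in WT and 111, 130, 169 and 121 CPM in cKO. The groups were mixed, with cKO replicate 1 the lowest library and cKO replicate 3 the highest. The means were 141 ± 19.7 and 133 ± 25.5 CPM and the log2 fold change was -0.09 ± 0.14 (95% interval -0.39 to 0.21; edgeR adjusted p = 0.903), and -0.24 ± 0.10 without cKO replicate 3 (unadjusted p = 0.0266, edgeR adjusted p = 0.458). The highest library exceeded the lowest by 1.53-fold, the widest span of the 9.

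**Figure D3:**
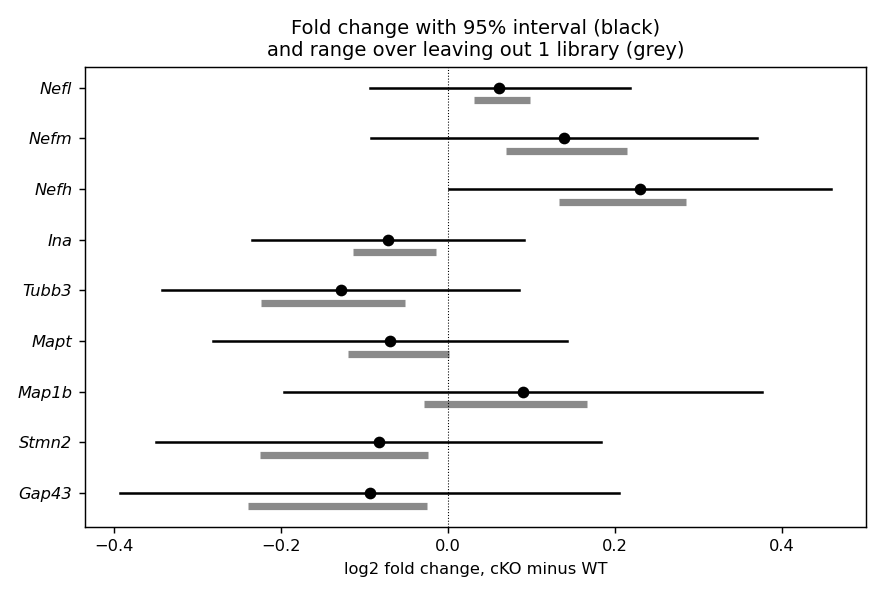
Log2 fold change of the 9 tested genes, cKO minus WT, with the 95% interval in black and, in grey, the range of values when each library was left out in turn. Only the interval of Nefh lies above 0, from 0.002 to 0.46, and the grey ranges of Mapt and Map1b cross 0.

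The library cKO replicate 3 bore on several members. Without it, 4 of the 9 (Nefm and Nefh higher, Stmn2 and Gap43 lower) stood at an unadjusted p under 0.05, against 9.55% of the 16216 genes then tested, and none had an edgeR adjusted p under 0.367. No other left-out library gave this count. It was 0 without WT replicate 1, 2 or 3 or cKO replicate 1 or 2, and 1 without cKO replicate 4. The library cKO replicate 3 had the highest value of 3 of the 9 members (Map1b, Stmn2 and Gap43) and the lowest of 2 (Mapt and Ina), while 24.9% and 24.0% of all tested genes had their highest and lowest value there. The ratio of Gap43 to Mapt in CPM was 0.416 in cKO replicate 3 and between 0.214 and 0.296 in the other 6 libraries. Dcx, the doublecortin of new-born neurons, was at 75.0 CPM there and at 26.4 to 36.6 CPM elsewhere, and Eomes, a transcription factor of mitral cells, at 14.6 CPM against at most 0.247. The part of these olfactory bulb markers in the members' values was not tested.

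**Figure D4:**
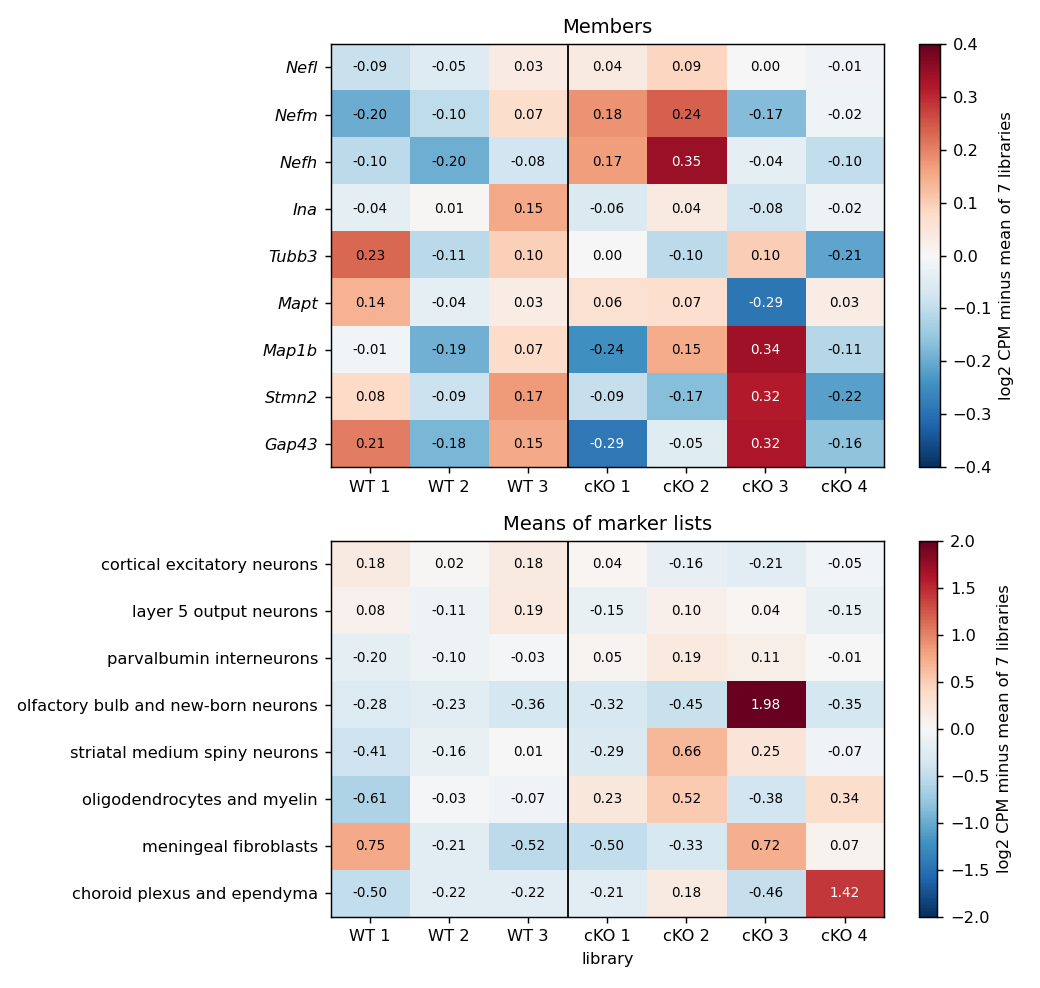
Log2 CPM minus the mean of the 7 libraries for each member (top) and as the mean over the genes of 8 marker lists (bottom), with a wider colour scale in the lower panel. In cKO replicate 3 the olfactory bulb list is at 1.98, Map1b, Stmn2 and Gap43 are the highest of their rows, and Mapt and Nefm are at -0.29 and -0.17.

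Across the 7 libraries the 3 neurofilament chains had their high and low values in much the same libraries, though no pair passed adjustment. Pearson's r of log2 CPM was 0.869 for Nefl and Nefm (Spearman's rho 0.893, exact permutation p = 0.0113 and 0.0123). Whether reads of the shared exon entered these counts is not known. For Nefl and Nefh it was 0.808 (rho 0.929; exact permutation p = 0.025 and 0.00675), and for Nefm and Nefh 0.81 (rho 0.714; exact permutation p = 0.0224 and 0.0881). Over the 36 pairs of members the smallest Benjamini-Hochberg adjusted p was 0.18 for r and 0.221 for rho. With the 2 libraries farthest from the median of the first gene left out, r was 0.687 for Nefl and Nefm and 0.768 for Nefl and Nefh. For Nefm and Nefh it was 0.0186 without cKO replicates 1 and 2, so that relation rested on those libraries. Leaving out cKO replicate 3 alone gave r of 0.977 for Nefl and Nefm, 0.813 for Nefl and Nefh and 0.863 for Nefm and Nefh. Ina had r of 0.346 to Nefl, 0.379 to Nefm and -0.006 to Nefh (exact permutation p = 0.453, 0.429 and 0.989), and 0.848 to Nefm without cKO replicates 1 and 2. Each group holds fewer than 6 libraries, the least taken for a correlation here, and none was computed within a group.

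High values of r were also found for pairs among Stmn2, Gap43, Map1b and Tubb3, though not for all of them. Stmn2 and Gap43 had r of 0.862 (rho 0.679; exact permutation p = 0.0145 and 0.11) and 0.659 without WT replicate 3 and cKO replicate 3. Map1b and Gap43 had r of 0.833 (rho 0.857; exact permutation p = 0.0228 and 0.0238) and 0.547 without cKO replicates 1 and 3. Tubb3 and Stmn2 had r of 0.777 (rho 0.786; exact permutation p = 0.0429 and 0.048), and 0.891 without WT replicate 1 and cKO replicate 4. Adjusted over the 36 pairs, the p of r was 0.18, 0.18 and 0.257. Tubb3 and Map1b had r of 0.354 (exact permutation p = 0.431). Mapt went the other way, with r of -0.597 to Stmn2, -0.581 to Map1b and -0.421 to Gap43 (exact permutation p = 0.147, 0.171 and 0.386). With cKO replicate 3 left out, r was 0.76 for Stmn2 and Gap43, 0.706 for Map1b and Gap43 and 0.86 for Tubb3 and Stmn2, and those of Mapt turned to 0.244, 0.349 and 0.515.

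By r over the 7 libraries, among 9867 genes with a mean of at least 10 CPM, the genes most like each member were as follows, as a description with no test. Nefl was nearest to the mitochondrial ribosome gene Mrps30 (0.987), the membrane-skeleton gene Epb41l3 (0.966) and the axonal potassium channel gene Kcna2 (0.954). Nefm was nearest to Ankrd40, Cluap1 and Atf7 (0.942 to 0.951), and Nefh to Siah3, Acly and Afg3l1 (0.943 to 0.958). Ina was nearest to Lsm14a, Atf6 and Magi2 (0.946 to 0.976). Tubb3 was nearest to the ribosomal protein gene Rps25, Entpd6 and the pyruvate kinase gene Pkm (0.978 to 0.986), and Mapt to Flywch1, Brsk2 and Ppp1r37 (0.988 to 0.993). Map1b was nearest to Prkar2a, Ascc3 and Msl2 (0.994 to 0.997), and Stmn2 to Eid1, Smim19 and Tspan13 (0.988 to 0.993). Gap43 was nearest to the axonal adhesion gene Chl1 (0.994), Astn1 (0.994) and Morf4l2 (0.987).

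The subunit transcripts were described by the share of each in the summed FPKM of Nefl, Ina, Nefm and Nefh. These are shares of RNA, and the protein make-up of the filament was not measured. Over the 7 libraries Nefl made up 43.7%, Ina 28.7%, Nefm 18.1% and Nefh 9.58%. The share of Ina was 29.8%, 29.9% and 30.4% in WT and 26.6%, 26.9%, 28.2% and 28.7% in the libraries labelled cKO. All cKO libraries were below all WT libraries for this share, with means of 27.6 ± 1.02% (SD, n = 4) and 30.1 ± 0.317% (SD, n = 3); the share was looked at after its parts were known and is given with no test. Nefh went the other way, at 9.48%, 8.67% and 8.65% in WT and 10.4%, 11.1%, 9.66% and 9.08% in cKO, where the groups overlapped through cKO replicate 4. Nefm averaged 17.5% and 18.6% and Nefl 43.5% and 43.8% in WT and cKO. As an alternative, the same counts were divided by the 2272 unshared bases of Nefl and the 3334 bases of Nefm-201, and no reads were removed. The shares over all libraries were then 48.3% for Nefl, 23.3% for Nefm, 21.3% for Ina and 7.11% for Nefh. On those lengths Ina was at 22.4 ± 0.218% in WT and 20.4 ± 0.817% in cKO, without overlap. Only the lengths changed, by the same amount in every library, so the part of reads from the shared bases was not tested.

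**Figure D5:**
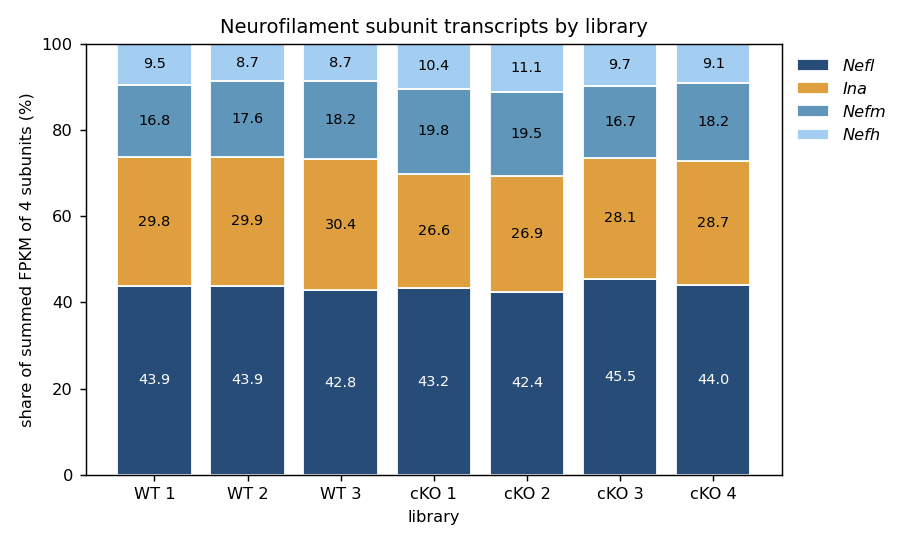
Share of Nefl, Ina, Nefm and Nefh in their summed FPKM, in percent, for each of the 7 libraries. The Ina band is 29.8 to 30.4% in the WT libraries and 26.6 to 28.7% in the cKO libraries.

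The other genes of the axonal cytoskeleton were read from 8 lists, and no gene of any list had an edgeR adjusted p under 0.05. Of 13 other tubulin genes, 4 were higher and 9 lower in the libraries labelled cKO (median log2 fold change -0.05), with Tuba1a, the main alpha-tubulin of young neurons, at 0.07 ± 0.14 (-0.11 ± 0.08 without cKO replicate 3) and Tubb4a, a beta-tubulin of neurons and oligodendrocytes, at 0.05 ± 0.09. The tubulin list had its highest summed level in cKO replicate 3, as Map1b, Stmn2 and Gap43 did, at 3056 CPM against 2466 to 2913 elsewhere. Of 23 other microtubule-associated proteins 16 were higher and 7 lower, with a median of 0.02. Map1a, the paralog of Map1b in mature neurons, was at -0.05 ± 0.09, and the oligodendrocyte gene Tppp at -0.05 ± 0.08.

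Of the 7 other stathmins and severing factors, 4 were higher and 3 lower. Katna1, the catalytic subunit of the microtubule-severing enzyme katanin, was at 6.73, 8.77 and 7.86 CPM in WT and 10.1, 9.78, 8.46 and 11.2 CPM in cKO. Only cKO replicate 3 lay within the WT range, and the log2 fold change was 0.34 ± 0.15 (unadjusted p = 0.0417, edgeR adjusted p = 0.696). The relatives of Stmn2, Stmn1 and Stmn3, were at -0.07 ± 0.09 and -0.11 ± 0.09.

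Growth-associated genes split evenly, 7 higher and 7 lower of 14 tested. Basp1, a membrane protein of growth cones related in function to Gap43, had a log2 fold change of -0.26 ± 0.10 (unadjusted p = 0.0241, edgeR adjusted p = 0.694). Atf3, a transcription factor induced in injured neurons, was at 0.31, 0.74 and 0.66 CPM in WT and 0.72, 0.73, 3.38 and 1.07 CPM in cKO, where only replicate 3 stood out. Its log2 fold change was 1.36 ± 0.61 (edgeR adjusted p = 0.696), and 0.55 ± 0.46 without that library (edgeR adjusted p = 0.731). Marcks was at -0.04 ± 0.10.

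In the axonal spectrin and ankyrin skeleton 8 of 14 genes were higher and 6 lower (median 0.03). Sptan1, the alpha-spectrin of neurons, was at -0.03 ± 0.08. Among 11 genes that handle neurofilaments, by transport, turnover or axon maintenance, 6 were higher and 5 lower. Sarm1, the enzyme that drives axon degeneration by consuming NAD, was at 39.0, 20.9 and 35.6 CPM in WT and 21.6, 20.5, 21.9 and 24.1 CPM in cKO. WT replicate 2 lay with the cKO libraries, and the log2 fold change was -0.53 ± 0.17 (unadjusted p = 0.00974, edgeR adjusted p = 0.679). Hspb1, a small heat shock protein, was at 0.64 ± 0.26 (unadjusted p = 0.029, edgeR adjusted p = 0.694). The kinesin gene Kif5a, whose motor moves neurofilaments, was at -0.02 ± 0.15, and at 0.12 ± 0.08 without cKO replicate 3, where its level was 2552 CPM against 3685 to 4294 CPM in the other libraries; Mapt was lowest there too. Klc1, a kinesin light chain, was at -0.09 ± 0.08.

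Of 24 kinases and phosphatases of tau and neurofilaments 11 were higher and 13 lower (median -0.01). Cdk5r2, an activator of Cdk5, was at -0.21 ± 0.10 (unadjusted p = 0.0521, edgeR adjusted p = 0.696) and did not overlap between groups; Ppp3ca, a calcineurin subunit, was at 0.08 ± 0.09. Among other intermediate filaments 4 of 7 were higher. Nes, the filament of progenitors and some vessel cells, was at 0.36 ± 0.16 (unadjusted p = 0.0432, edgeR adjusted p = 0.696). Without cKO replicate 3 it was at 0.29 ± 0.16 (unadjusted p = 0.0899, edgeR). The astrocyte filament Gfap was at 0.27 ± 0.15 and Vim at 0.07 ± 0.11 (-0.02 ± 0.10 without cKO replicate 3).

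The cell types that carry these genes were read from marker lists. Markers of cortical excitatory neurons were abundant in every library of this tissue, labelled motor cortex. Their summed level was 5733 to 6326 CPM in WT and 4457 to 5751 CPM in cKO. All 8 were lower in cKO, while 51.8% of all tested genes were higher. Slc17a7 (-0.30 ± 0.10), Neurod6 (-0.32 ± 0.10) and Neurod2 (-0.22 ± 0.09) stood at an unadjusted p under 0.05, against 7.14% of all tested genes. Of 10 pan-neuronal genes 2 were higher and 8 lower (median -0.08), with summed levels of 7625 to 8541 CPM in WT and 7565 to 8467 in cKO. Markers of the layer 5 output neurons, the cortical cells richest in neurofilament, were higher for 5 and lower for 7 of 12, with summed levels of 477 to 580 CPM in WT and 463 to 581 in cKO. Of these, Fezf2 (-0.41 ± 0.14), Crym (-0.41 ± 0.18), Ldb2 (-0.33 ± 0.11) and Chst8 (-0.32 ± 0.15) stood at an unadjusted p under 0.05, as 7.14% of all tested genes did. Pcp4 (0.21 ± 0.17) and Bcl11b (0.095 ± 0.161), with the highest FPKM of the list, went the other way. Bcl11b was highest in cKO replicate 3 (161 CPM), and its log2 fold change was -0.053 ± 0.125 without that library. That of Chst8 was then -0.28 ± 0.15 (unadjusted p = 0.083, edgeR). With all libraries in the fit, none of these excitatory and layer 5 genes had an edgeR adjusted p under 0.679.

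In the parvalbumin, myelin and striatal lists every gene was higher in cKO, as 51.8% of all tested genes were. The same held for all 6 tested motor and peripheral neuron markers and all 5 tested choroid plexus and ependymal markers with all libraries fitted. The log2 fold change of the motor list gene Th turned from 1.51 ± 0.82 to -0.245 ± 0.326 without cKO replicate 3. That of Slc5a7 stayed positive (0.85 ± 0.27), as did those of the choroid and ependymal list genes Clic6 (0.86 ± 0.32) and Foxj1 (0.71 ± 0.18). Ttr, also of that list, was at 153.6 CPM in cKO replicate 4. In the other cKO libraries Ttr was at 7.102 to 12.84 CPM, with a WT mean of 11.24 CPM. Parvalbumin interneurons are fast-spiking cells that also hold neurofilament. The 6 genes of their list were Pvalb, Gad1, Slc32a1, Kcnc1, Syt2 and Tac1, all higher in cKO. Gad1 and Slc32a1 belong to GABAergic neurons at large, so the list is not specific to parvalbumin cells. Its sums spanned 775 to 847 CPM for WT and 854 to 1070 CPM for cKO, with the top value in cKO replicate 3. Gad1 was at 591.5 CPM in that library against 345.9 to 439.1 elsewhere, while Pvalb was lowest there, at 24.3 against 29.1 to 43.2. Without that library the log2 fold change of Gad1 went from 0.31 ± 0.14 to 0.14 ± 0.08 (edgeR adjusted p = 0.589). That of Pvalb went from 0.18 ± 0.16 to 0.32 ± 0.10 (edgeR adjusted p = 0.282). All 10 myelin genes were higher, with summed levels of 3860 to 5898 CPM in WT and 4198 to 8331 in cKO. Of them 4, with Aspa, Ermn and Ugt8a among these, stood at an unadjusted p under 0.05, against 7.14% of all tested genes. The highest myelin sum was in cKO replicate 2, which also had the highest Nefl, Nefm and Nefh, and the lowest was in WT replicate 1, which had the lowest Nefl and Nefm. Other libraries did not follow this order. In cKO replicate 4 the myelin sum was 7362 CPM, with Nefl at 339 and Nefh at 82.6 CPM. WT replicate 3 had less myelin (5390 CPM) but more Nefl (351) and Nefh (83.8). Nefh was lowest in WT replicate 2 (77.1 CPM), the WT library with the highest myelin sum. Among the 8 striatal markers, all higher in cKO, the summed level was highest in the same cKO replicate 2, at 1753 CPM against 923 to 1357 elsewhere. In the fit of all 7 libraries, none of the genes in these lists had an edgeR adjusted p under 0.669. The part of cell content or dissection in the members' differences was not tested.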

How the data were processed

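The authors deposited raw counts and FPKM for the same genes, with symbols, positions and lengths; FPKM are the authors' values. Build mm10, DESeq2 1.20.0 and featureCounts 1.5.0-p3 are named in the submitters' processing notes. The aligner, annotation release and strand setting were not given in the sources used here. The deposited gene lengths equalled the GENCODE M21 exonic length of all 10 members, and exon overlaps were read from that annotation.

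Counts were tested with edgeR 4.0.16 in R 4.3.3 (TMM factors, filterByExpr, quasi-likelihood F test, genotype only) on all 7 libraries, with Benjamini-Hochberg adjustment over the 16308 genes that passed; an adjusted p under 0.05 was called. Intervals are 95% intervals. CPM use TMM-scaled library sizes; log2 CPM for correlations use a prior count of 2. Single values were also compared by exact permutation in SciPy 1.17.1, and figures were drawn with matplotlib 3.10.9. Alternatives were other scalings, filters, limma 3.58.1 on counts and on log2(FPKM + 1) or log2(FPKM + 0.1), DESeq2 1.42.0, a sex covariate, a replicate block and leaving out libraries.

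The rule for named genes took all members, their 3 nearest genes by r, and from each pathway list genes at an unadjusted p under 0.05 and the 2 with the highest FPKM. Results for 4 genes that the rule or lists cover are not reported here. Markers of single libraries were named after their values were seen. The members and lists were chosen with earlier results of these data known. Both groups carry replicate numbers of unstated meaning. Deviations from group means of same-numbered libraries correlated at 0.11, 0.128 and 0.122 across genes. Each is over 0.1, the limit set for treating numbers as pairs. Libraries of unlike number went higher, with WT replicate 1 and cKO replicate 3 at 0.129 and WT replicate 2 and cKO replicate 4 at 0.21. The main fit took no pairs because the labels do not say what a number stands for, and the replicate block was run as an alternative.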

Additional observations from a re-analysis of the deposited data

Results flagged for a closer look

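Among the 4 cKO libraries, 1 library stood far from the others in 4 of the 35 quantities examined; chance flags about 1 in 20 groups. Mapt was at 406 CPM in cKO replicate 3, and the gap to the next library was 0.886 of the range of the group. The summed level of olfactory bulb and new-born neuron markers was 380 CPM in cKO replicate 3 (0.961 of the range). The summed level of microglial markers was 242 CPM in cKO replicate 1 (0.907 of the range), and that of choroid plexus and ependymal markers was 180 CPM in cKO replicate 4 (0.947 of the range). Of the 9 tested members, Tubb3 and Stmn2 were lowest in cKO replicate 4, and Map1b and Gap43 in cKO replicate 1.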

How the results depend on the processing

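No member passed an adjusted p of 0.05 in any setting, or of 0.1 in edgeR. Of 180 log2 fold changes of the members under 20 settings, 176 kept their direction. The 4 that turned were Mapt (0.00131) and Map1b (-0.0282) without cKO replicate 3, and Mapt (0.0577) and Map1b (-0.00685) without WT replicate 1 and cKO replicate 3 together. With each library left out, Nefl ranged from 0.03 to 0.10, Nefm from 0.07 to 0.22, Nefh from 0.13 to 0.29, Ina from -0.11 to -0.01, Tubb3 from -0.22 to -0.05, Mapt from -0.12 to 0.001, Map1b from -0.03 to 0.17, Stmn2 from -0.22 to -0.02 and Gap43 from -0.24 to -0.02. The count of all genes past the threshold, 0 in the edgeR test and 1164 at an unadjusted p under 0.05, was 198 with no filter on low counts (148 higher, 50 lower), 4 with DESeq2 (Qk, Galnt16, Slc5a3 and Hspa1b), 3 on log2(FPKM + 1) with no filter (Mir7022, Mir345 and Mir3070b), 2 with the replicate block (Cadm2 and Rpl30) and 1 without WT replicate 1 and cKO replicate 3 together (Entpd4b). With each library left out it was 0 to 3: Ide, Gm1821 and Xaf1 without WT replicate 2, Entpd4b without WT replicate 1 and Cadm2 without cKO replicate 4. These genes were named after their values were seen, and the cause was not tested. The replicate block gave Nefh a log2 fold change of 0.28 (edgeR adjusted p = 0.622) and changed no call of a member; it moved Stmn2 to -0.04, Tubb3 to -0.07 and Gap43 to -0.06. With the same counts divided by the unshared length of Nefl and the length of Nefm-201, the subunit shares moved. They were 48.3% for Nefl, 23.3% for Nefm, 7.11% for Nefh and 21.3% for Ina, an alternative chosen after seeing the annotation. Depth was ample for 9 members and limited Prph alone. A p that missed the threshold does not show that the groups were alike: the interval for Nefh reaches a 1.37-fold difference.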
